A study of Mus musculus with 2 samples.

Results

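The cells described here are 159 cells of the young library that carried transcripts of cell division and almost no mitochondrial RNA. They were chosen by their own values. In each, the 13 mitochondrially encoded genes summed below 100 per 10,000 unique molecular identifiers (UMIs, the tags that mark single captured RNA molecules), the ribosomal gene copy Rpl9-ps6 was at least 10 per 10,000, and at least 4 of 5 genes, Top2a, Ccnb1, Ube2c, Cenpf and Cks2, had a UMI. They made up 6.46% (95% interval 5.52 to 7.5) of the 2463 young cells and 12.3% (10.5 to 14.2) of the 1297 young cells that met the first 2 conditions. The other 1138 of those cells are called the other low-mitochondrial cells. The series held 3893 cells in all. The 46 further young cells under the mitochondrial limit that had less Rpl9-ps6 included 0 with 4 or 5 of the genes. The remaining 1120 young cells, with at least 100 mitochondrial UMIs per 10,000, are called mitochondria-rich.

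The study profiled the dentate gyrus, the part of the hippocampus that makes new granule neurons in adult life, in C57BL/6 mice. A young library (3 months) was set against an old library (16 months). Both came from microdissected tissue dissociated with papain, from which cells that excluded propidium iodide were sorted as live, and each was prepared with the 10x Genomics 3′ kit, so that the ends of transcripts were counted. The labels give no transgene and no treatment, and they do not give the number of animals behind a library. With 1 library at each age there was no replicate. No test was therefore made, and each interval is exact, covers counting error only, and is at 95%.

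The organism of these cells was uncertain, because of their counts of ribosomal gene copies, and it was not tested. Rpl9-ps6 had a median of 46.6 per 10,000 in them and 0 in the mitochondria-rich cells, though 86.7 in the highest of those. The rule asked for Rpl9-ps6, so this gap was set in part by the choice of cells. Rpl13a-ps1 and Rps12-ps3, copies that the rule did not use, are given further below. The label is mouse, and all names below are the mouse gene columns on which reads were counted. The old library repeats barcodes of the young library: 1401 of its 1430 barcodes, each of 16 bases, were present in both. The values below come from the young library unless the old one is named.

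When a cell divides, cyclin B with its kinase drives entry into mitosis, topoisomerase II and condensins compact the chromosomes, and the spindle attaches to them at kinetochores. The anaphase-promoting complex then marks cyclin B and securin for destruction, the sister chromatids part, and cytokinesis splits the cell. Many of these genes are transcribed only late in the cycle, in G2 and mitosis, so that their RNAs mark cells close to division. In the adult dentate gyrus, dividing cells are mostly neural progenitors and neuroblasts, with some glial precursors.

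Top2a, the topoisomerase that untangles sister DNA, was found in 155 of the 159 cells, with 0 UMIs in the lowest cell, 7 in the median cell and 47 in the highest. Ccnb1, cyclin B1, was found in 141 cells, with 0, 3 and 31 UMIs. Ube2c, the ubiquitin-conjugating enzyme that works with the anaphase-promoting complex, was found in 147 cells, with 0, 3 and 34 UMIs. Every one of these 3 genes was thus missing from some of the cells. Cenpf, a protein of the outer kinetochore, was found in 149 cells, with 0, 3 and 24 UMIs. Cks2, a small binding partner of cyclin-dependent kinases, was found in 158 cells, with 0, 9 and 45 UMIs. Cks2 was the least selective of the 5 genes: it had 2123 UMIs in the 159 cells and 2201 in the other low-mitochondrial cells, where 70.2% of cells had a UMI.

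The 114 cells with all 5 genes and the 45 cells with 4 of 5 sat beside 79 low-mitochondrial cells with 3 of 5, just outside the limit. Top2a had medians of 2 UMIs in cells with 4 genes and 1 UMI in cells with 3. Cks2 had medians of 5 and 2 UMIs in the same cells. Ccnb1 was the gene most often missing in cells with 4 genes (18 of 45), and Ube2c in cells with 3 (51 of 79). The limit at 4 genes was therefore crossed by differences of 1 or a few UMIs.

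The 5 genes lie on 4 mouse chromosomes. On GRCm38, in the GENCODE M21 annotation, Top2a is at chr11:98992943-99024189, Ccnb1 at chr13:100778650-100786570, Ube2c at chr2:164769898-164778822, Cenpf at chr1:189640606-189688086 and Cks2 at chr13:51645232-51650660. The 250 bases before each transcription start are shown because the genes were high together, and late cell cycle promoters are known for CCAAT boxes and for the cell cycle genes homology region, for which TTTGAA is a common form and TTTAAA another. The sequences are RefSeq's for GRCm38.p6, 5′ to 3′ along the gene's strand, with every match on either strand to the CCAAT box or to either form of the homology region in capitals. The starts are also RefSeq's. For Ccnb1 and Ube2c, part of the bases shown therefore lies within the gene as GENCODE places it.
Top2a (chr11:99024190-99024439, minus strand): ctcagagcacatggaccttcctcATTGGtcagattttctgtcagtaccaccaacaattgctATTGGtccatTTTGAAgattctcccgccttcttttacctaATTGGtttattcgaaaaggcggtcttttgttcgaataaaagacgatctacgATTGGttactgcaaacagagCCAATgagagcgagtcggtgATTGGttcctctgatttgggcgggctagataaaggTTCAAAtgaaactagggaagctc
Ccnb1 (chr13:100786487-100786736, minus strand): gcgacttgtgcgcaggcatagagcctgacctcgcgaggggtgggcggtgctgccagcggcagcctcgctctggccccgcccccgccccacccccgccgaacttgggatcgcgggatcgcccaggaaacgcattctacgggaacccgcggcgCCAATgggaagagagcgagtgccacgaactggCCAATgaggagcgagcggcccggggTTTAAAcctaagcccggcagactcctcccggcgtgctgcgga
Ube2c (chr2:164769679-164769928, plus strand): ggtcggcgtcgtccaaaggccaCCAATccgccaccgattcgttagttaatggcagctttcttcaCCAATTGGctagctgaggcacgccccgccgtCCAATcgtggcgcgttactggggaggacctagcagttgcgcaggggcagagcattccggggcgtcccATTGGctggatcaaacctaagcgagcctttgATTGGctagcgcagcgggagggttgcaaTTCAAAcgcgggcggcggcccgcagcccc
Cenpf (chr1:189688087-189688336, minus strand): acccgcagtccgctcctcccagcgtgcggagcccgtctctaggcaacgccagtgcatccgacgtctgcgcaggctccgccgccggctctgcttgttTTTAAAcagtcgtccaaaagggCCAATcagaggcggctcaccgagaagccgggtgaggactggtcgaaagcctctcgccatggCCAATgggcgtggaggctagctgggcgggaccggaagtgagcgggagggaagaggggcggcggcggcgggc
Cks2 (chr13:51644982-51645231, plus strand): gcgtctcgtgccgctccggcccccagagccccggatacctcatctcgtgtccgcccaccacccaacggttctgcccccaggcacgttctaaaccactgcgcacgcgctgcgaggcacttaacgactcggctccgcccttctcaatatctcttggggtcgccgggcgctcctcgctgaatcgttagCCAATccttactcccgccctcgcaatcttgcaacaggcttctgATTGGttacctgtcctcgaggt

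CCAAT occurred 6 times in the bases shown for Top2a, 6 times for Ube2c, and 2 times each for Ccnb1, Cenpf and Cks2. TTTGAA occurred 2 times for Top2a and 1 time for Ube2c, TTTAAA occurred 1 time each for Ccnb1 and Cenpf, and neither occurred for Cks2. The motifs were then counted, on both strands, in RefSeq's windows of 300 bases (250 before the start and 50 after), taking 1 window per gene. Each motif was counted without regard to the others; a CCAAT box can share only an end base with the others, and at the capitals that hold a box on both strands, as for Ube2c, both were counted. Of the 133 genes in 7 mitotic lists (cyclins and CDK control, kinases, anaphase-promoting complex, kinesins and cytokinesis, spindle, kinetochore, chromosome structure), 111 had a window. CCAAT was in 68.5% of these (59 to 77), against 37.9% of the 27018 genes of the promoter table. TTTGAA was in 54.1% (44.3 to 63.6), against 18.1%, and TTTAAA in 16.2% (9.9 to 24.4), against 13.2%. Among kinesin and cytokinesis genes, TTTGAA was in 15 of 18 windows, and among DNA replication genes in 5 of 35. A match describes these letters of the mouse genome and is not a measured binding site.

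Other mitotic genes, taken as a sum, were also high in the same cells. The 5 genes were set aside, and the other 128 genes of the 7 mitotic lists were summed in each cell. The sum had a lowest value of 105, a median of 258 and a highest value of 512 per 10,000 UMIs in the 159 cells. In the other low-mitochondrial cells it had 21.8, 81 and 482. The groups overlapped: 383 of the other cells lay above the lowest of the 159, 9 lay above their median, and 1 of the 159 lay above the highest other cell. By the number of the 5 genes detected, from 0 to 5, the median sum was 88.3, 76.5, 78.6, 140, 203 and 303. The sum was thus flat up to 2 genes and higher at each step from 3 on. A few abundant genes weighed most in it. Over the 159 cells together, H2afz was 68.9, Hmgb1 34.9 and Stmn1 30.2 of the 282 per 10,000.

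**Figure D1:**
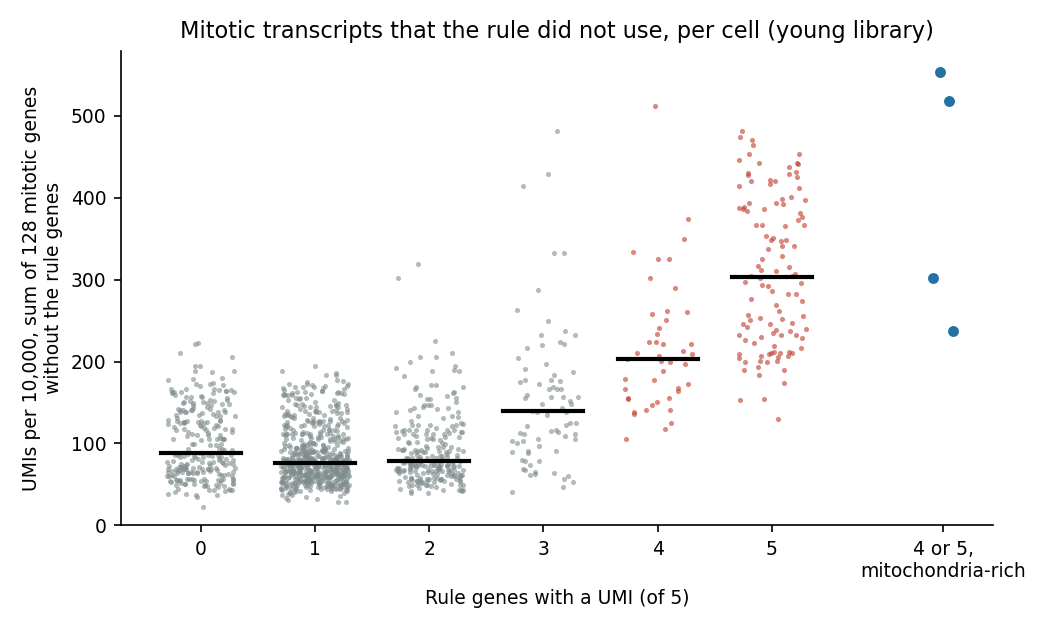
Each point is a cell of the young library; the vertical axis is the sum of 128 mitotic genes that the rule did not use, in UMIs per 10,000, and the horizontal axis is the number of the 5 rule genes with a UMI (grey, 0 to 3; red, the 159 cells; black bars, medians). The medians stay between 76.5 and 88.3 up to 2 genes and reach 303 at 5 genes; the 4 mitochondria-rich cells with 4 or 5 genes (blue) lie between 237 and 553.

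The 159 cells were also deeper. They had a median of 10205 UMIs (lowest 1350, highest 23890) and 2183 detected genes, while the other low-mitochondrial cells had 6992.5 UMIs and 1690.5 genes. Against only the other cells between the lower and upper quartile of the 159 cells' UMIs, 146 genes were 2-fold higher, by the measure defined below. Of these, 65 were mitotic genes outside the rule. All 159 cells were kept, so only the comparison cells were limited in depth. Mitochondrial UMIs had a median of 8.38 per 10,000 in the 159 cells, against 7.98 in the other low-mitochondrial cells. Rpl9-ps6 was 46.6 per 10,000 at the median, against 60.2. Scrublet, a doublet caller, marked 0 of the 159 cells and 13 of the 1138 others.

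For each gene, UMIs were summed over the cells of a group and divided by the group's total. A gene was called when its level per 10,000 UMIs, plus a pseudocount of 0.1, differed 2-fold or more between the 159 cells and the other low-mitochondrial cells, among the 8075 genes with at least 20 UMIs over both groups. This is a description, since the cells were chosen on values of the same library. Of all genes tested, 146 (1.81%) were higher and 100 (1.24%) were lower, and the median log2 ratio was -0.01. Of the 146, 87 were in the cell cycle lists. Both counts include the 5 rule genes, whose own values chose the cells. Of the 91 mitotic genes tested other than the 5 rule genes, 65 were higher and 0 lower, with a median log2 ratio of 1.46. The remaining 37 of the 128 had too few UMIs. The counts and medians of single lists below also leave the 5 rule genes out.

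Among the cyclins and their control, 5 of 7 tested genes were 2-fold higher, with a median log2 ratio of 1.59. Ccnb2, the second mitotic cyclin B, had 272 UMIs in the 159 cells and 22 in the 1138 others, a 59.7-fold difference per UMI counted (38.6 to 96.9). Cdkn3, a phosphatase of CDKs, had 561 and 145 UMIs (18.7-fold, 15.5 to 22.6). Cdk1, the kinase that cyclin B activates, was sparse, with 36 UMIs in 33 of the 159 cells and 4 UMIs in the others. Ccna2, cyclin A2, had 49 and 10 UMIs. Wee1, the kinase that holds Cdk1 inactive, had the smallest log2 ratio of the list, 0.75.

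The mitotic kinases had 7 of 8 tested genes higher, with a median of 1.32. Aurkb, the kinase of the chromosomal passenger complex, had 181 UMIs in 93 of the 159 cells and 11 UMIs in the others, a 79.5-fold difference (43.4 to 162). Ttk and Bub1, kinases of the spindle checkpoint, had 86 and 48 UMIs, against 17 and 7. Plk1, which acts at entry into mitosis and at the spindle poles, had 26 and 3 UMIs. These kinases were detected in few cells each, Plk1 in 22 and Bub1 in 40.

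The anaphase-promoting complex and its partners split. The complex's activator Cdc20 had 316 UMIs in 98 of the 159 cells and 37 in the others (41.2-fold, 29.3 to 59.7). Pttg1, the securin that the complex destroys, had 763 and 376 UMIs (9.8-fold, 8.65 to 11.1), and Ube2s, which extends its ubiquitin chains, 1041 and 1168 (4.3-fold, 3.96 to 4.68). These were 3 of 15 tested genes, and the other 12 were not called. The core subunits were near the level of the other cells, such as Anapc5 at a log2 ratio of -0.07 and Cdc23 at -0.42. The median of the list was 0.08.

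Of the motors and cytokinesis genes, 14 of 15 tested were higher, with a median of 2.01. Kif4, a chromosome-bound kinesin, had 347 UMIs in 114 of the 159 cells and 53 UMIs in the others (31.6-fold, 23.6 to 43.1). Prc1, which bundles the microtubules of the midzone, had 266 and 61 UMIs. Kif2c, which takes microtubules apart at centromeres, had 139 and 13, and Kif11, which pushes the spindle poles apart, 185 and 60. Racgap1, a cytokinesis regulator, had 18 and 11 UMIs and a log2 ratio of 0.87, the lowest of the list.

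Spindle and centrosome genes were higher in 12 of 16 cases, with a median of 1.73. Tpx2, an activator of Aurora A on the spindle, had 329 and 74 UMIs (21.5-fold, 16.6 to 28). Hmmr had 173 and 19 UMIs, and Aspm, which focuses the spindle poles, 138 and 15. The tubulins were also high: Tuba1c had 1061 and 982 UMIs (5.22-fold, 4.78 to 5.7) and Tubb4b 1811 and 2159 (4.05-fold, 3.8 to 4.31). Tubb4b had a UMI in 97.5% of the 159 cells and in 76.6% of the others.

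Kinetochore and checkpoint genes were higher in 8 of 11 tested, with a median of 1.44. Ndc80, which grips the microtubule end, had 150 and 26 UMIs, and Knl1, the scaffold that recruits the checkpoint, 110 and 17. The other 13 genes of this list of 25 had too few UMIs to be tested. Cenpa, the histone of the centromere, Nuf2, the partner of Ndc80, Cenpq, Dsn1 and Zwint were at 0 UMIs in both groups. With 1667484 UMIs in the 159 cells, a count of 0 allows up to 0.018 per 10,000.

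Chromosome structure genes were higher in 17 of 20 tested, with a median of 1.54. Cdca8 and Birc5, members of the chromosomal passenger complex, had 168 and 170 UMIs, against 19 and 25. Ncapg and Smc4, condensin subunits, had 219 and 715 UMIs, against 63 and 407. Hmgb2, a chromatin protein of dividing cells, had 1550 and 1077 (6.95-fold, 6.43 to 7.52). The cohesin subunits Smc1a and Smc3 differed least, with log2 ratios of 0.83 and 0.77. Mki67, the usual proliferation marker, had 13 UMIs in 12 of the 159 cells and 1 UMI in the others.

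Genes of DNA synthesis were less marked: 10 of 34 replication genes were higher and 0 lower, with a median of 0.61. Cdc45, part of the replicative helicase, led at 73 and 55 UMIs (6.41-fold, 4.46 to 9.27). Rrm1, a subunit of ribonucleotide reductase, had 289 and 504 UMIs (2.77-fold, 2.39 to 3.21). Nasp, a histone chaperone, had 1820 and 4083 (2.15-fold, 2.04 to 2.28), and Mcm6, another helicase subunit, 12 and 65, with a log2 ratio of -0.07. Of the replication histones, 6 of 8 tested were higher. The linker histone gene Hist1h1c had 275 and 99 UMIs (13.4-fold, 10.6 to 17.1). Other histone columns, such as Hist1h1e, share at least 50% of their 3′ end with another gene and are uncertain.

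Regulators were close to the other cells. Of 9 tested G1 cyclins and CDK inhibitors 0 were called, and their median was 0.18. Ccnd1, cyclin D1, had a log2 ratio of 0.15, and the antiproliferative Btg1 and Btg2 had -0.28 and -0.29. Of 15 E2F, DREAM and FOXM1 regulators 1 was higher, Lin9, a DREAM subunit, at 1.06, and the median was 0.43. Foxm1, the activator of late cell cycle genes, had 10 UMIs in the 159 cells and 1 in the others, too few to be tested.

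**Figure D2:**
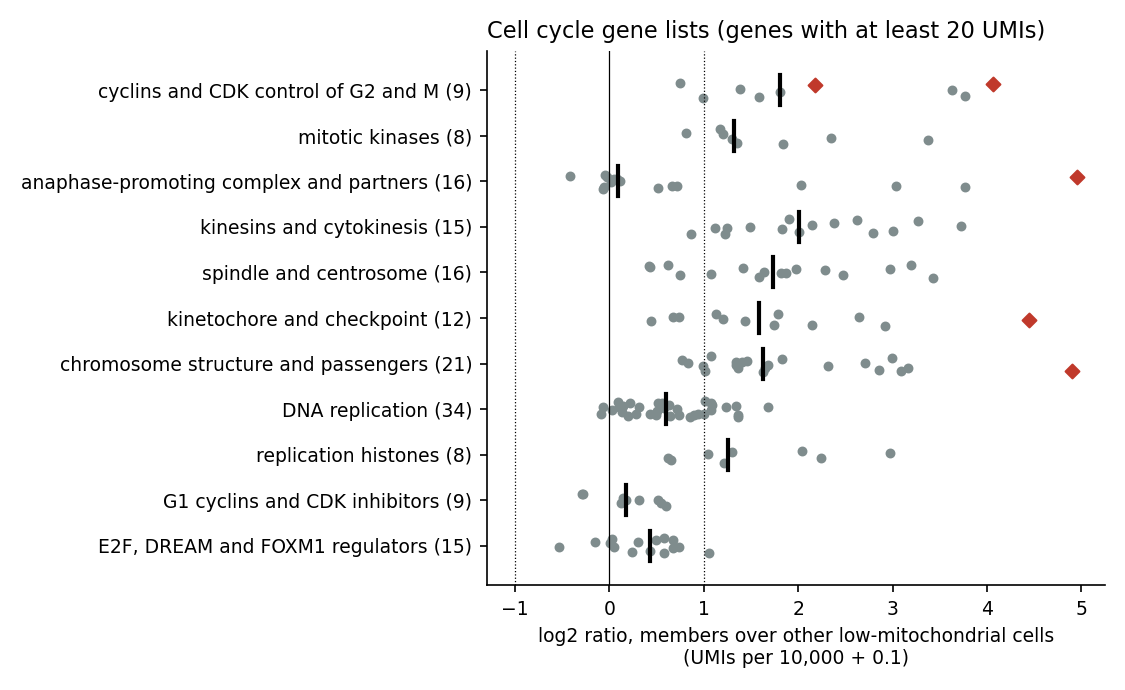
Each point is a tested gene of a cell cycle list (number tested in parentheses), placed on the horizontal axis at its log2 ratio between the 159 cells and the other low-mitochondrial cells; red diamonds are the rule genes, black bars the list medians, dotted lines the 2-fold limits. With the rule genes included, as drawn, the medians are 0.10 for the anaphase-promoting complex, 0.18 for G1 cyclins and 2.01 for kinesins and cytokinesis.

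Outside the lists, 59 genes were 2-fold higher, and several are known from division. Depdc1a had 163 UMIs in the 159 cells and 71 in the others (11.1-fold, 8.34 to 14.9), and Arhgap11a, a GTPase-activating protein, 55 and 13. Diaph3, a formin that works in cytokinesis, had 78 and 28 UMIs, and Dbf4, the activator of the replication kinase Cdc7, 187 and 183. Mnd1, known for its role in meiotic recombination, led these genes with 224 and 113 UMIs, but 62.8% of its 3′ end occurs in the copy Mnd1-ps. These genes outside the lists were ranked by their ratio after the values were seen.

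The higher columns Gm10184 and Gm10282 are annotated retrogenes, intronless copies of a spliced gene. Gm10184 (chr17:89908462-89910449) shares 97.2% of the 31-base words of its last 500 transcript bases with Kpna2, an importin of the list above, and had 183 and 141 UMIs (6.27-fold, 5 to 7.86). Kpna2 itself had 562 and 419 UMIs (6.48-fold, 5.7 to 7.37). Gm10282 (chr8:72304110-72305260) shares 76.6% with Hmgn2, a nucleosome-binding protein, and had 320 and 418 UMIs (3.7-fold, 3.19 to 4.29), while Hmgn2 had 445 and 642 (3.35-fold, 2.96 to 3.78). Each copy thus differed between the groups by nearly the same factor as its parent. Over all 1120 mitochondria-rich young cells, Gm10184 was at 0.00469 and Gm10282 at 0.00781 per 10,000, and Hmgn2 at 2.3.

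The ribosomal copies were somewhat lower in the 159 cells than in the other low-mitochondrial cells, by less than 2-fold. Summed, they were at 118 and 140 per 10,000 (0.84-fold, 0.828 to 0.853), and all 8 tested had log2 ratios from -0.38 to -0.11. Rpl9-ps6 (chr19:32465865-32466578, minus strand, annotated as a retrogene) had 7954 UMIs, or 47.7 per 10,000, in the 159 cells and 62 per 10,000 in the others. Its transcript matches that of the parent gene Rpl9 at 691 of 692 aligned bases, so counts of the 2 columns are uncertain. Rpl9 was at 27.8 and 35.5 per 10,000. In the mitochondria-rich cells Rpl9-ps6 was at 0.209 and Rpl9 at 12.1. Rpl13a-ps1 had 6642 UMIs in the 159 cells and Rpl13a had 72, whereas in the mitochondria-rich cells they were at 0.166 and 2.81 per 10,000. Rps12-ps3, whose 3′ end is wholly found in Rps12, was at 15.3 and 16.5 per 10,000 in the 2 low-mitochondrial groups and at 0.111 in the mitochondria-rich cells. Of the 8 ribosomal pseudogenes tested 0 were called between the low-mitochondrial groups (median -0.16), and of the 83 ribosomal protein genes 0 (median -0.16). The 13 mitochondrially encoded genes had a median of 0.06, with 0 called.

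Of the 100 lower genes, 10 were in the neuron list and 0 in a cell cycle list. Stmn2, a tubulin-binding protein of growing axons, had 367 UMIs, or 2.2 per 10,000, in the 159 cells and 18.2 per 10,000 in the others (0.121-fold, 0.109 to 0.134). Gap43, a protein of growth cones, was at 0.612 and 6.47 per 10,000, and Nefm, a neurofilament, at 0.498 and 4.95. Dcx, the microtubule protein of migrating neurons, was at 0.186 and 1.21. The transcription factor Neurod1 had 3 UMIs in the 159 cells and 326 in the others. The median log2 ratio of the 16 tested neuron genes was -1.61. Tubb3, a neuronal tubulin, went the other way, at 8.13 and 3.36 per 10,000, with a UMI in 156 of the 159 cells. Summed per cell over the whole list, Tubb3 included, the median was 11.6 per 10,000 in the 159 cells and 8.16 in the others. The highest cells were at 50.9 and 405. Over the groups the list was at 13.3 and 36.8 per 10,000, so Tubb3 made up far more of it in the 159 cells. A sum per cell without Tubb3 was not made, so these medians do not describe the other neuron genes.

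Other lower genes were found in a minority of the comparison cells. Sst, the peptide somatostatin, had 3897 UMIs in 214 of the 1138 other cells and 38 UMIs in 26 of the 159. The transcription factor Tlx3, known from sensory neurons, had 676 UMIs in the others and 11 in the 159 cells. Crabp1, a retinoic acid binding protein, had 41 and 1698 UMIs, and Tfap2b 120 and 2805.

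The count of lower genes depended on the cells used for comparison. Against only the other cells within the middle range of UMIs of the 159 (their lower to upper quartile), 71 genes were lower, of which 37 were among the 100, and 8 of these 71 were in the neuron list. Against the cells with 0 of the 5 genes, 204 were lower. Leaving out every cell whose barcode is also in the old library left 46 of the 159 cells and 966 others, with 145 genes higher and 231 lower, of which 99 and 81 were among those first called. With a pseudocount of 1 the counts were 37 higher and 12 lower, and with 0.01 they were 336 and 560.

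Markers of the possible lineages were compared after each cell was thinned to 5000 UMIs, which left out the 8 shallower cells of the 159 and 172 of the others. Sox2, a transcription factor of neural progenitors, had a UMI in 140 of the 159 cells. Thinned, it was in 81.5% (74.3 to 87.3) of the 151 cells, in 63.8% (60.6 to 66.8) of the other low-mitochondrial cells, and in 23.8% of the mitochondria-rich cells, which include glia. Rfx4, a factor of neural tube patterning, was in 67.5% (59.5 to 74.9) and 46% (42.8 to 49.2). Zic1 was in 59.6% and 59.8%, and Pax3, a dorsal neural and crest factor, in 41.7% and 38.8%, with 0 of 588 mitochondria-rich cells holding Pax3. Sox2 and Rfx4 were detected more often in the 159 cells beyond counting error, while the intervals of Zic1 and Pax3 overlapped. Pax6, a progenitor factor named after its values were seen, went the other way, at 6.62% (3.22 to 11.8) and 14.1% (11.9 to 16.4), with a log2 ratio of -1.04.

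At least 3 neural progenitor markers were found in 139 of the 159 cells (87.4%, 81.2 to 92.1). Thinned, the share was 75.5% (67.8 to 82.1), against 60.9% (57.7 to 64) of the other low-mitochondrial cells and 19.7% of the mitochondria-rich cells. In levels the list differed little, with a median log2 ratio of 0.29 over 15 genes, 0 higher and 1, Pax6, lower. For the neuron list the thinned shares were 55.6% (47.3 to 63.7) and 52.8% (49.6 to 56). For the mesenchyme list they were 8.61% (4.66 to 14.3) and 9.42% (7.65 to 11.4), with a median log2 ratio of -0.10 and 0 of 8 genes called.

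Mesenchymal genes marked a smaller set. Twist1, a factor of mesenchyme and cranial crest, had 317 UMIs in 25 of the 159 cells, and Prrx1, of limb and facial mesenchyme, was found in 16. Of the 159 cells, 126 had Sox2 without Twist1, 11 had Twist1 without Sox2, 14 had both and 8 neither. Twist1 and Prrx1 occurred together in 13 cells. The other low-mitochondrial cells held such cells too, with Twist1 and Prrx1 together in 65 and Sox2 and Twist1 together in 56. Thinned, Twist1 was in 12.6% of the 151 cells and in 10.8% of the other low-mitochondrial cells. Col1a2, the collagen chain, was in 72 cells, and thinned in 31.1% of the 151, in 40.5% of the other low-mitochondrial cells and in 0.85% of the mitochondria-rich cells. Col2a1, the collagen of cartilage and of early neural tissue, was in 72 cells as well, and thinned in 24.5% and 22.9%.

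Most cell types common in adult hippocampus were at or near 0 by the same rule of 3 markers. For microglia and other immune cells, for endothelium and for oligodendrocyte precursors it was 0 of the 159 cells, for which the exact interval reaches 2.29%, and for oligodendrocytes 1 cell. Endothelial markers summed to 0 UMIs, with all 9 genes at 0. The microglial gene C1qa had a UMI in 9 of the cells, a background to read such shares against: after thinning, it was in 2.65% of the 151 cells, in 3.52% of the other low-mitochondrial cells and in 60% of the mitochondria-rich ones. Astrocyte markers reached 3 in 8 cells (5.03%, 2.2 to 9.67), against 0.879% of the other low-mitochondrial cells. Thinned, the shares were 2.65% (0.726 to 6.64) and 0.207% (0.0251 to 0.746). These markers were led by Gja1 in 62 cells and Slc1a3 in 30, which are also expressed by radial progenitors. Neural crest and Schwann cell markers reached 3 in 10 cells, with Tfap2b in 38, and cartilage markers in 4. Skeletal muscle and epithelial markers reached 3 in 0 cells, although Pax7 was in 30 and Krt18 in 14, red blood cell markers in 1, and Hox genes in 0, with 2 Hox UMIs in all. Only 8 of 29 listed Hox genes, 5 of 9 epithelial, 8 of 12 muscle and 6 of 9 red blood cell genes had a column.

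**Figure D3:**
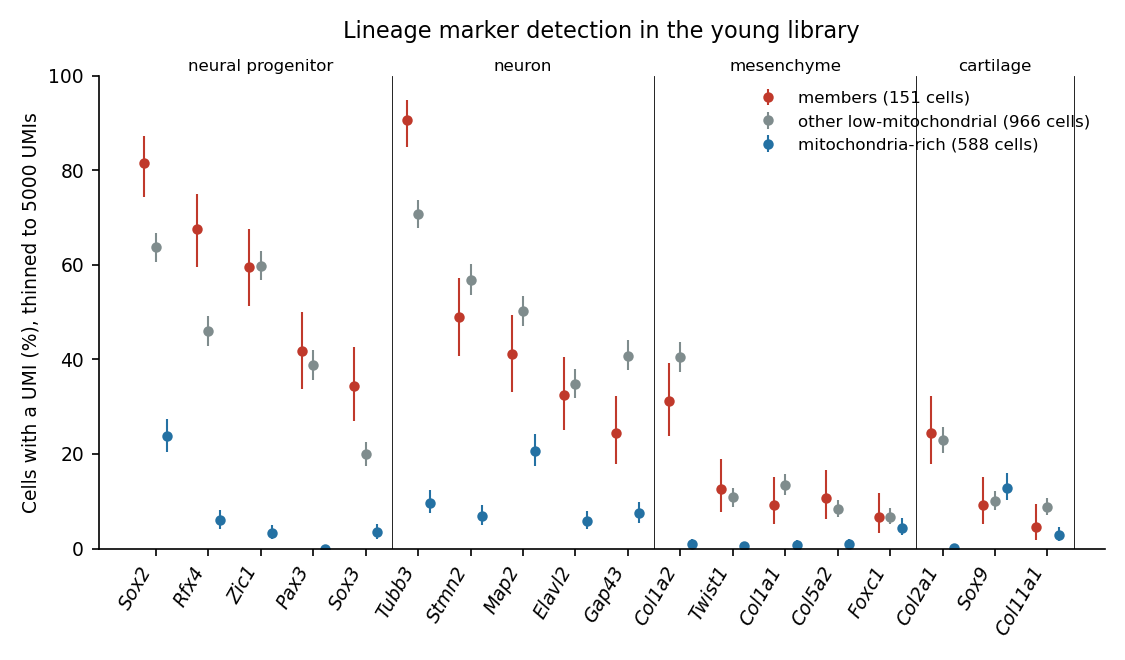
The vertical axis is the percentage of cells with a UMI after thinning to 5000 UMIs, with exact 95% intervals, for the 5 markers of each list (3 for cartilage) that were found in the largest numbers of the 159 cells (red, 151 after thinning), in the other low-mitochondrial cells (grey, 966) and in the mitochondria-rich cells (blue, 588). Sox2 is at 81.5%, 63.8% and 23.8%, and Gap43 at 24.5%, 40.8% and 7.48%.

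Seen from the lineage side, 139 of the 873 low-mitochondrial cells with at least 3 neural progenitor markers were among the 159 (15.9%, 13.6 to 18.5), against 20 of the 424 with fewer (4.72%, 2.9 to 7.19). The first cells were deeper, with medians of 7701 and 6167.5 UMIs. By level in place of detection, the low-mitochondrial cells above the upper quartile of the summed progenitor list held 16% (12.2 to 20.5) of such cells, and those below it 11% (9.1 to 13.1). The cells above the upper quartile of the neuron list held 10.5% (7.38 to 14.4) and the rest 12.8%. For the mesenchyme list the shares were 9.26% (6.33 to 13) and 13.3%.

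Among the 1120 young cells with at least 100 mitochondrial UMIs per 10,000, 4 cells (0.357%, 0.0974 to 0.912) had 4 or 5 of the genes. Their sums over the other 128 mitotic genes ran from 237 to 553 per 10,000, with a median of 410, within or above the range of the 159 cells. Their ribosomal pseudogenes were at 0.424 per 10,000, against 118 in the 159 cells. They are set beside the 159 cells gene by gene, with 47207 UMIs in all, so that only large differences show.

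Individual mitotic genes differed widely between these 2 kinds of dividing cell. Of the 128 mitotic genes outside the rule, 71 (55.5%) were lower in the 159 cells with an interval below 1, and 10 (7.81%) were higher with an interval above 1. Of all 12056 genes with a UMI in either group, 2776 (23%) were lower by that measure and 541 (4.49%) higher. Cenpa had 27 UMIs in the 4 cells and 0 in the 159, and Nuf2 had 16 and 0. Spc24, a subunit of the same kinetochore complex as Nuf2, had 18 and 2 UMIs, although the 159 cells held many times the total UMIs. Mki67 had 12 UMIs in the 4 cells and 13 in the 159 (0.0307-fold per UMI counted, 0.0129 to 0.0735). Racgap1 had 21 and 18 UMIs. Hmgn2 was at 30.5 per 10,000 in the 4 cells and 2.67 in the 159.

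Other genes were higher in the 159 cells. Kpna2 was at 3.37 with 1 UMI in the 4 cells (15.9-fold, 2.84 to 630). Pttg1 was at 4.58 and 1.06, and the histone variant H2afz at 68.9 and 43.8 (1.57-fold, 1.37 to 1.81). These differences were read on the mouse gene columns and their cause was not tested.

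**Figure D4:**
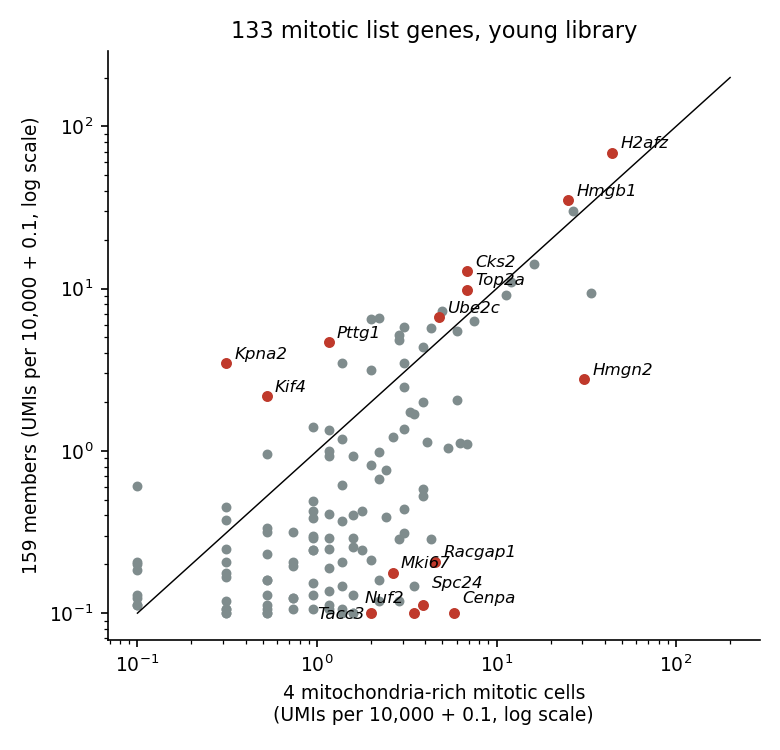
Each point is 1 of 133 mitotic list genes; the horizontal axis is its level in the 4 mitochondria-rich cells with 4 or 5 rule genes and the vertical axis its level in the 159 cells, both as UMIs per 10,000 plus 0.1 on a log scale, with the line of equal levels. Cenpa, Nuf2 and Tacc3 lie at 0 UMIs in the 159 cells; H2afz and Kpna2 lie above the line. The 5 rule genes, which chose both groups, are among the points.

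In the old library, 262 cells met the mitochondrial and Rpl9-ps6 limits and 34 of them (13%, 9.16 to 17.7) had 4 or 5 of the genes. All 34 carried the barcode of one of the 159 young cells. Of the 159 barcodes, 113 (71.1%, 63.4 to 78) were in the old library, against 172 of the 1138 other low-mitochondrial cells (15.1%, 13.1 to 17.3) and 1082 of the 1120 mitochondria-rich cells (96.6%). The old values of these barcodes therefore cannot be taken as those of separate cells, and no difference with age can be read from them. Why the barcodes recur was not tested.

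The same barcodes were far shallower in the old library. The ratio of old to young UMIs was 0.129 at the lowest of the 113, 0.15 at the median and 0.166 at the highest. In the mitochondria-rich cells it was 1.12 at the median, and the ranges did not overlap (lowest 0.981). The old counts had a median of 1681 UMIs and 734 genes, with 603 genes in the lowest cell, close to the lowest of any cell in the library, 600. Gene by gene, 95.3% of the old UMIs at the median lay within the young counts of the same barcode. This share was 95% for the other low-mitochondrial barcodes and 85.4% for the mitochondria-rich ones. Different barcodes were not compared, and counts this shallow could also lie within those of another cell.

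Whether a barcode recurred went with depth. Of the 24 young cells below 8000 UMIs 1 recurred, of the 46 from 8000 to 10000 UMIs 23, of the 46 from 10000 to 12000 all 46, and of the 43 deeper cells all 43. Among the other low-mitochondrial cells the same bins gave 9 of 783, 73 of 238, 47 of 69 and 43 of 48. In the third bin the share was 100% (92.3 to 100) for the 159 cells and 68.1% (55.8 to 78.8) for the others.

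Over the 113 barcodes, 4345 genes had at least 20 UMIs in the 2 libraries together, of which 61 (1.4%) were 2-fold higher in the old library and 252 (5.8%) lower, with a median log2 ratio of -0.05. Since the old counts were far shallower, genes near the minimum were called lower on very few old UMIs. Some of their intervals include 1, as for Clpp with 21 and 0 UMIs (0 to 1.29) and Acat1 with 33 and 1 (0.00501 to 1.22). Mitochondrial RNA was at a median of 8.49 per 10,000 in the young and 54.6 in the old counts. Beside mt-Co3 (206 and 267 UMIs), the higher genes included Cst3 (68 and 103), Hbb-bs (42 and 54), C1qb (8 and 19) and Apoe (99 and 58), which are genes of glia, blood and microglia. Their UMIs differed less between the libraries than the totals of 1340741 and 199302 UMIs. The part of RNA from other cells in these counts was not tested.

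The mitotic genes differed unevenly over the same barcodes, which were chosen on the young counts. Of 78 tested outside the rule, 0 were higher and 8 lower, with a median of -0.21. Of the 8, Pbk (22 and 0 UMIs) and Wee1 (29 and 1) had intervals that include 1. H2afz had 9143 UMIs in the young and 1892 in the old counts (1.39-fold per UMI counted, 1.32 to 1.46), and Hmgb2 1272 and 142 (0.751-fold, 0.627 to 0.894). Cdc20 had 281 and 18 (0.431-fold, 0.252 to 0.694), and Ccnb2 232 and 8 (0.232-fold, 0.099 to 0.465). The rule genes themselves had 1395 and 231 UMIs for Top2a, 800 and 112 for Ccnb1 and 954 and 50 for Ube2c, given as a description since their young counts chose the barcodes. Polr2h, a subunit of RNA polymerase II, had 64 UMIs in the young and 0 in the old counts.

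**Figure D5:**
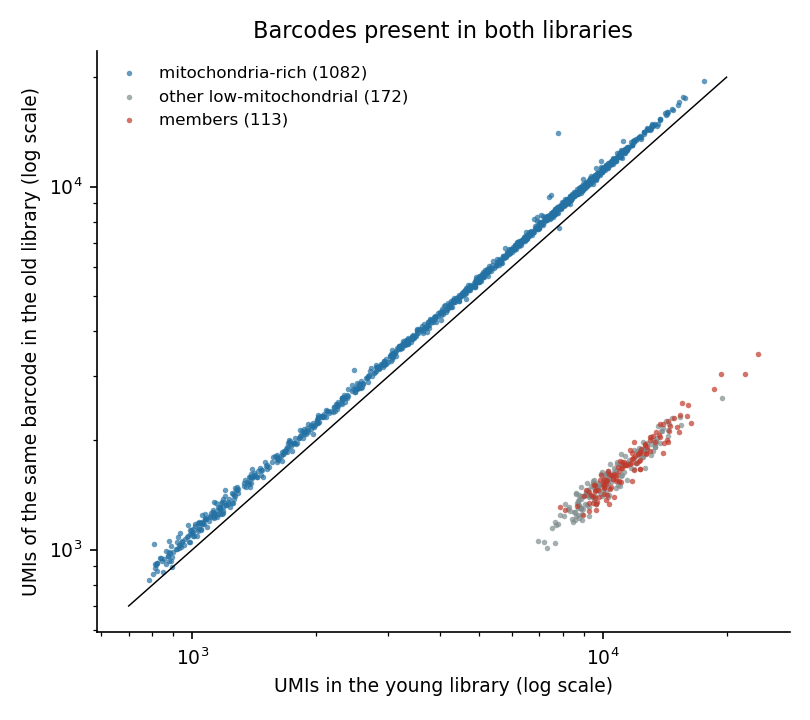
Each point is a barcode found in both libraries; the axes are its total UMIs in the young (horizontal) and old (vertical) library on log scales, with the line of equal depth. The 113 of the 159 cells (red) and the 172 other low-mitochondrial cells (grey) lie at old-to-young ratios of 0.129 to 0.168, and the 1082 mitochondria-rich cells (blue) at a median of 1.12.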

How the data were processed

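Per the labels, the 2 libraries are 10x Genomics 3′ libraries of mouse dentate gyrus. The reads were processed with Cell Ranger 5.0.0 on mm10, per the submitters' processing notes. Its annotation is not stated there, nor is any filter on cells. The deposited table holds, for each cell, the natural log of 1 plus UMIs per 10,000, a unit read from its values (every cell sums to 10000). Whole UMIs were recovered for 100% of values (tolerance 0.01) and summed over 17592 gene columns. The members and gene lists were chosen with earlier results of these data known. Ratios used a pseudocount of 0.1 per 10,000 and at least 20 UMIs. On simulated counts, recovery was checked only for changes above 2-fold in well-counted genes, not near the minimum of 20 UMIs. Genes were named by rule: the rule genes, the highest 6 and lowest 2 of each cell cycle list, the 12 highest and 12 lowest genes with at least 50 UMIs, the 3 markers of each lineage list found in most members, and the 3 most counted ribosomal copies with their parents; others named were chosen after their values were seen, and a few genes that the rule names are not reported here. Shared 3′ ends are 31-base words of the last 500 transcript bases (GENCODE M21). Thinning was 1 seeded draw to 5000 UMIs. Scrublet in scanpy 1.11.5 called doublets (37 young cells, 1.5%), which were kept. Intervals are Clopper-Pearson for shares and exact conditional for ratios of counts. Scripts ran in Python 3.11.15 (matplotlib 3.10.9, pandas 2.3.3, scipy 1.17.1, numpy 2.4.6).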

Additional observations from a re-analysis of the deposited data

How the results depend on the processing

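Barcodes were paired between the libraries for description only. Each age has 1 library, so no paired test was made and no result comes from a test. The number of members was 159 under every mitochondrial, Rpl9-ps6 and doublet setting tried, 238 with 3 of 5 genes, and 114 with all 5 or after thinning. Beside the counts of called genes given above for the pseudocounts, for the others with 0 rule genes (204 lower) and without barcodes of the old library (231 lower), pseudocounts of 1 and 0.01 gave 37 and 336 higher and 12 and 560 lower genes. The median log2 ratio of the mitotic genes, 1.46, was 0.43 and 2.54 with these pseudocounts, 1.98 with at least 100 UMIs and 1.17 with no minimum. The members' median of 10205 UMIs was 10898 with all 5 genes and 9634.5 with 3. The share with at least 3 markers (15.1% mesenchyme, 87.4% neural progenitor, 83% neuron) was 25.8%, 93.7% and 95% with 2 markers, 8.18%, 78% and 61.6% with 4, and 8.61%, 75.5% and 55.6% after thinning. The share of each lineage's cells that were members (16%, 15.9% and 14.3%) was 34.5%, 42.1% and 38.8% among cells with at least the members' lower quartile of UMIs, and 9.26% for mesenchyme and 10.5% for neuron by summed level. Of the 159 barcodes, 113 were in the old library whatever their values, against 34 passing the same rule there. In all, 52 of these alternatives stayed close to the value first given (a count within 1.5 times, a share or median within its counting interval) and 27 moved. Of the medians of single lists, 226 stayed within that interval and 29 moved; the mesenchyme median (-0.10; -0.48 to 0.12) took the other sign in 2 settings and the mitochondrial median (0.06; -0.15 to 0.14) in 3. Some alternatives were added after the data were seen. These were leaving out the 8 members under 5000 UMIs, leaving out the cells whose barcode is in the old library, and the choice by summed level. Genes such as Cdk1, at 36 UMIs over 159 cells, were sparsely counted, and the cause was not tested.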
